A study of Mus musculus with 4 samples.

Results

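The genes described here encode 8 Toll-like receptors and 2 co-receptors for lipopolysaccharide (LPS), the outer coat component of Gram-negative bacteria. They are Tlr1, Tlr2, Tlr4, Tlr5, Tlr6, Tlr7, Tlr9, Tlr13, Cd14 and Ly96. They were chosen by name, with earlier results of these data known. They are 10 of the 18193 genes that have a probe set annotated with a single gene symbol, and 15 of the 45101 probe sets of the array belong to them. A probe set is the group of short array probes that reports on 1 transcript. RNA was compared between granulocytic myeloid-derived suppressor cells (G-MDSC, 2 samples) and neutrophils (2 samples), all from female C57BL/6 mice, with 1 Affymetrix array per sample. Age was not given in the labels. G-MDSC (CD11b+, Ly6G+, Ly6C low) were enriched on anti-Ly6G microbeads from spleens 3.5 weeks after EL4 lymphoma cells had been placed under the skin. Neutrophil donors were not described as given tumour cells. Neutrophils came from the peritoneal cavity of mice given 2 intraperitoneal injections of 1.5 ml of 12% casein, a milk protein that provokes inflammation, with 16 h between them, and were collected 3 h after the second. The neutrophils were depleted of F4/80-bearing cells before selection for Ly6G, a step not described for G-MDSC. Cell kind, tissue, tumour, casein and sorting therefore cannot be told apart in any difference below. It was not stated that replicates were taken from different animals, so a p-value here reflects the spread between samples that could be technical.

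Toll-like receptors are membrane proteins that bind conserved microbial molecules and start inflammatory signalling through adaptor proteins such as MyD88. Tlr1, Tlr2, Tlr4, Tlr5 and Tlr6 act mainly at the cell surface on lipoproteins, LPS and flagellin, whereas Tlr7, Tlr9 and Tlr13 act in endosomes on nucleic acids. Granulocytes use them to sense bacteria, to prolong their survival and to release cytokines. Cd14 hands LPS to the complex of Tlr4 with Ly96 (also called MD-2), the subunit that binds the lipid.

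Values are signals on a linear scale, already scaled between arrays. They can be compared between arrays for 1 probe set but not between probe sets, so no order of levels across genes is given. The 40th percentile of signal, used as the limit for dim probe sets, was 45.7 and 52.6 in G-MDSC replicates 1 and 2, and 51.4 and 132.7 in neutrophil replicates 1 and 2. Neutrophil replicate 2 thus stood apart at the low end, and its correlation with replicate 1 was 0.875 across kept probe sets, against 0.953 between the G-MDSC arrays. Neutrophil replicate 1 correlated at 0.885 and 0.875 with G-MDSC replicates 1 and 2, so it was as close to that group as to its own replicate. Of 14 genes listed as markers of granulocytes, the cells sorted for in both groups, 12 were tested, with 6 higher and 0 lower in G-MDSC. Their summed signals were 291019 and 334301 in the G-MDSC arrays, against 190199 and 223225 in the neutrophil arrays. Such a sum, here and below, is led by the brightest probe sets of its list and is no measure of cell number. The list median was 1.12, and 8.3% of all genes were called higher and 8.05% lower by the test given below. The granule protein genes Mpo, Camp, Elane, Ltf and Ngp, named after their values were seen, were higher by 5.12, 5.10, 4.74, 4.38 and 2.54 on the log2 scale, which is 34.7-fold for Mpo. Elane, at 82.6, was below the 40th percentile in neutrophil replicate 2. Of the same list and also named after their values were seen, Mmp8 and Mmp9 were not called (0.77 ± 0.32 and 1.01 ± 0.35). The receptor gene Cxcr2 was higher by 1.24 ± 0.34. The calprotectin subunits S100a8 and S100a9 were not called (-0.31 ± 0.34 and -0.45 ± 0.34), and S100a8 gave 53178 and 61944 in the G-MDSC arrays, against 58668 and 85891 in the neutrophil arrays. The Ly6g marker was not analysed here. Precision is limited by the number of arrays.

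The receptors did not move as 1 block. Tlr1 and Tlr7 were higher in G-MDSC, Tlr2 and Tlr4 were lower, and the other 6 did not pass the test, which was limma on log2(signal + 16) with Benjamini-Hochberg adjustment over all 13139 genes tested and a threshold of 0.05. Each gene is represented by its brightest probe set, and all 10 passed the filter on dim signals. Called genes thus made up 2 of 10 in each direction, beside 8.3% of all genes higher and 8.05% lower (16.4% in all). The share of higher calls among all genes is not fixed: it was 1091 genes higher and 1058 lower as deposited, but 916 and 395 when arrays were scaled to equal medians, and the members then gave 1 higher and 0 lower. The 2 G-MDSC values did not overlap the 2 neutrophil values for 6 of 10 members, beside 59.5% of all genes. The median log2 difference, G-MDSC minus neutrophils, was -0.31 over the 10 members and -0.18 over all genes. The 4 calls rest on limma's moderation of the variance across genes. Without its intensity trend and without moderation none of the 10 was called, and 4 and 3 of them had an unadjusted p under 0.05. Over all genes these fits called 479 (3.65%) and 0, with 3403 and 2379 at an unadjusted p under 0.05. A fit without 1 array takes its spread from the pair left in the other group and assumes that the lone array varies likewise. Such fits called 44.8% of all genes without neutrophil replicate 1, 24.1% without neutrophil replicate 2, and 7.63% and 8.16% without G-MDSC replicates 1 and 2, so adjusted p-values with an array left out are read against these shares.

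**Figure D1:**
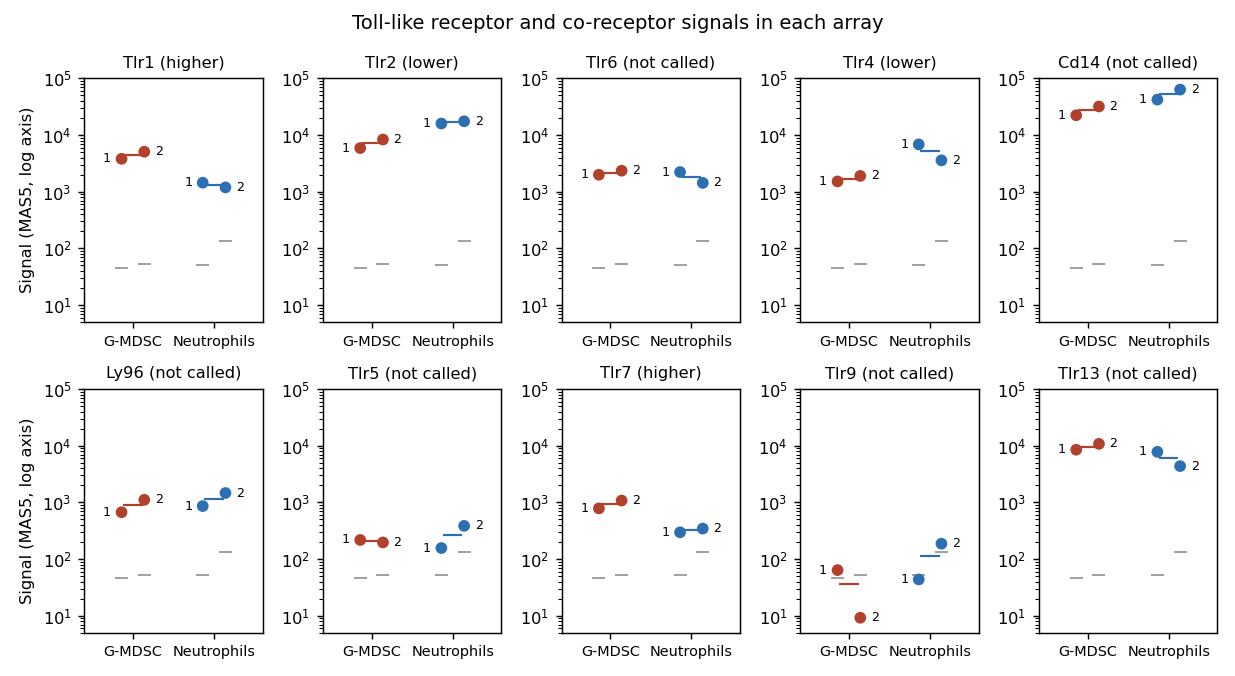
Signal (log axis) of the 10 genes in each array, with G-MDSC in red at the left and neutrophils in blue at the right of each panel; numbers mark replicates, coloured bars the group means and grey bars each array's 40th percentile. Tlr1 and Tlr7 lie higher in both G-MDSC arrays, Tlr2, Tlr4 and Cd14 lower, and the Tlr9 points scatter about the grey bars.

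Among the surface receptors for lipoproteins, Tlr1 and Tlr2 moved in opposite directions. Tlr2 recognises lipoproteins as a partner of either Tlr1, for triacylated forms, or Tlr6, for diacylated forms. Tlr1 gave signals of 3813 and 5090 in the G-MDSC arrays, against 1445 and 1192 in the neutrophil arrays. Both G-MDSC arrays were well above both neutrophil arrays, a 3.33-fold difference (log2 difference 1.73 ± 0.31, SE, n = 2 per group; limma adjusted p = 0.00362). Relative to the median gene it was 1.92 higher. With arrays scaled to equal medians the difference was 2.37, with an adjusted p of 0.0789. That scaling moved the median of all genes to 0.41.

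Tlr2 gave signals of 5903 and 8355 in the G-MDSC arrays, against 15999.5 and 17525 in the neutrophil arrays. The groups were again separate, with the lower values in G-MDSC (log2 difference -1.25 ± 0.31, SE, n = 2 per group; limma adjusted p = 0.0187), so the neutrophil signal was 2.38 times that of G-MDSC. The call was lost without G-MDSC replicate 1 (difference -1.0, adjusted p = 0.295). It was also lost with equal medians, where the difference was -0.61 (adjusted p = 0.679).

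Tlr6 gave 1996 and 2351 in the G-MDSC arrays, against 2226 and 1431 in the neutrophil arrays. The value of neutrophil replicate 1 lay between those of G-MDSC and that of replicate 2 below both, so the groups overlapped, and the difference of 0.28 (95% interval -0.44 to 1.0; limma adjusted p = 0.608) had the opposite sign, -0.04, without neutrophil replicate 2. Tlr1 and Tlr6 are neighbouring genes on chromosome 5 in RefSeq. The log2 ratio of Tlr1 to Tlr6 signal within an array was 0.93 and 1.11 in the G-MDSC arrays, against -0.62 and -0.26 in the neutrophil arrays. These ratios have no meaning as levels. They differed by 1.46 between the groups, without overlap and without a test.

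The same comparison set Tlr1 against Tlr2, its partner. The log2 ratio of Tlr1 to Tlr2 was -0.63 and -0.71 in the G-MDSC arrays, against -3.45 and -3.86 in the neutrophil arrays, so Tlr1 relative to Tlr2 was 7.93-fold higher in G-MDSC. This change was 2.99 as deposited, 2.98 with equal medians, 2.79 with quantile normalization and 2.78 to 3.19 with 1 array left out. A factor common to an array nearly cancels in such a ratio, so equal medians could hardly alter it. As the groups do not overlap, leaving out 1 array could not turn its sign. The ratio of Tlr6 to Tlr2 was -1.56 and -1.82 in the G-MDSC arrays, against -2.84 and -3.60 in the neutrophil arrays, a change of 1.53. In all, 7 such pairs of members were compared. With 2 arrays in each group the smallest two-sided p that exact permutation allows is 0.33, so these ratios carry no test.

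Promoter windows were examined for the lipoprotein receptors because Tlr1 and Tlr2 differed in opposite directions, and Tlr6 is the neighbour of Tlr1 and was not called. The sequences are from RefSeq (GRCm38.p6) and run 5′ to 3′ from 250 bases before a gene's start to 50 bases after it. Capitals mark matches, on either strand, to GAGGAA (the core bound by PU.1, a myeloid transcription factor), TTGCNNAA (a C/EBP motif), the interferon-stimulated response element or the kappaB motif bound by NF-kappaB. Overlapping matches to 1 motif are merged.
Tlr2, chr3:83841559-83841858, minus strand: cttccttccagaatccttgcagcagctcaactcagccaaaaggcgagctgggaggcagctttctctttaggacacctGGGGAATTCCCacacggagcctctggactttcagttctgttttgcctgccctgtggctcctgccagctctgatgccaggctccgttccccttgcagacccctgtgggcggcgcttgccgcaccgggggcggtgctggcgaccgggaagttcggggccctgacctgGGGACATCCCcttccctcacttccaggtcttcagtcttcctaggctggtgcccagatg
Tlr1, chr5:64933509-64933808, minus strand: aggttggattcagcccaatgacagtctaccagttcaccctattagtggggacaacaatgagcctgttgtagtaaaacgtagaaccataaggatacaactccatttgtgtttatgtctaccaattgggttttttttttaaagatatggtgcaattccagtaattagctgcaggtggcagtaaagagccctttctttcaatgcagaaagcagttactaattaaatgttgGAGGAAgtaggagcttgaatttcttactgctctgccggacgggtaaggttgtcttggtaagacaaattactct
Tlr6, chr5:64959117-64959416, minus strand: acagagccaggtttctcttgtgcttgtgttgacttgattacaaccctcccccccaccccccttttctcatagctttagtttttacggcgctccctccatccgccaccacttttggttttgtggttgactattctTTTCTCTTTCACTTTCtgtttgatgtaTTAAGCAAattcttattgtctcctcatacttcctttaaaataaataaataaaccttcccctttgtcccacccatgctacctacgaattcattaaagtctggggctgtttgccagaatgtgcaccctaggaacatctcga
The Tlr2 window held 2 kappaB matches, GGGGAATTCCC and GGGACATCCC, the second across the start, and none of the other motifs. The kappaB motif occurs in 4.51% of all 32851 windows. The Tlr1 window held 1 match to GAGGAA, which occurs in 28.3% of windows. The Tlr6 window held 1 match to the C/EBP motif (10.8% of windows) and 1 merged match to the response element (3.44%). A further window for an alternative start of each of Tlr1 and Tlr6 held no match. Windows were matched for 6 of the 10 members. Tlr4, Tlr7, Ly96 and Cd14 were not examined, so the windows cover neither the other called lower gene nor the other called higher gene. Those of Tlr13 and Tlr9 held 1 and 2 matches to GAGGAA, Tlr13 held 1 C/EBP match as well, and Tlr5 held none. A match describes the letters only and shows neither binding nor a cause.

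Of the LPS receptor complex, Tlr4 was lower in G-MDSC. Its brightest probe set, 1418163_at, gave 1520.0 and 1904 in the G-MDSC arrays, against 6842 and 3579 in the neutrophil arrays. Both G-MDSC arrays lay below both neutrophil arrays (log2 difference -1.53 ± 0.36, SE, n = 2 per group; limma adjusted p = 0.0139). The neutrophil signal was 2.89 times that of G-MDSC. The difference was -1.07 without neutrophil replicate 1 and -2.00 without neutrophil replicate 2. The call was lost without G-MDSC replicate 1 (-1.37, adjusted p = 0.0743) and with equal medians (-0.90, adjusted p = 0.601).

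Tlr4 has 4 probe sets, and G-MDSC were below neutrophils in each of them, without overlap. The groups did not overlap in 54.6% of all kept probe sets. Probe set 1418162_at gave 447.9 and 514.0 in the G-MDSC arrays, against 2070.5 and 928.4 in the neutrophil arrays, and 1442827_at gave 706.5 and 901.5 in the G-MDSC arrays, against 1715 and 1048 in the neutrophil arrays. The dimmest, 1430695_at, gave 8.95 and 53.3 in the G-MDSC arrays, against 79.5 and 174.9 in the neutrophil arrays, and 3 of its 4 values were above the array's 40th percentile. When every kept probe set was fitted by itself (28754 in all, of which 8.03% were called, 3.72% higher and 4.31% lower), the brightest Tlr4 probe set was called (adjusted p = 0.0403) and the others had log2 differences of -1.50, -0.74 and -1.70 with adjusted p of 0.0654, 0.272 and 0.287 by limma. The median of the 4 probe sets differed by -1.12 (adjusted p = 0.0586).

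**Figure D2:**
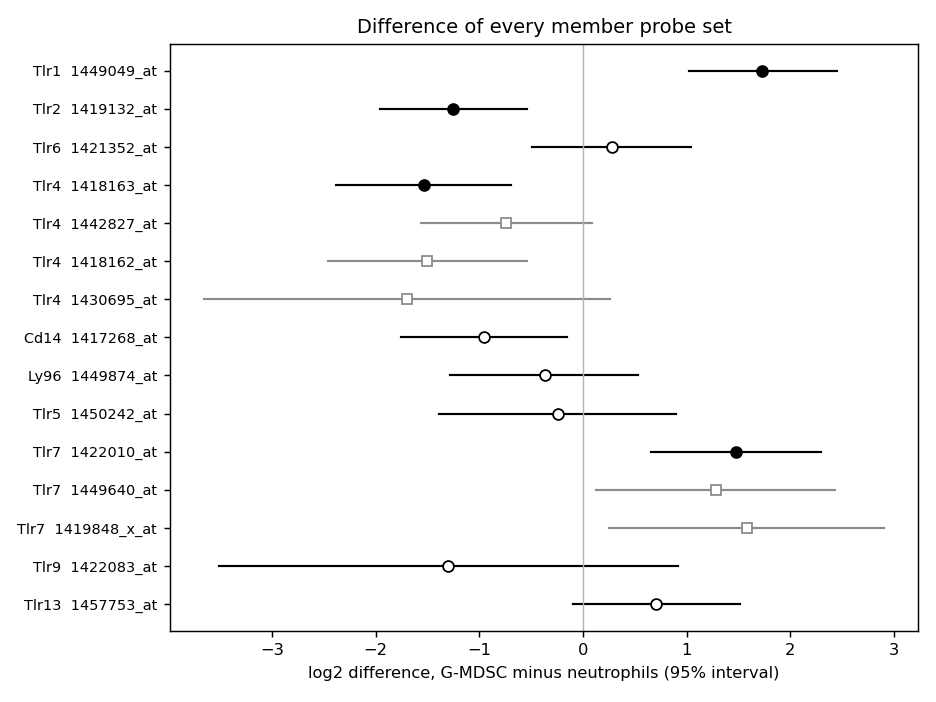
Log2 difference, G-MDSC minus neutrophils, of all 15 member probe sets with 95% intervals from the fit over all 28754 kept probe sets; circles are the probe set used for the gene, squares the others, and filled symbols have an adjusted p under 0.05. All 4 Tlr4 probe sets lie left of 0 and all 3 Tlr7 probe sets right of it.

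The co-receptors of Tlr4 gave no call. Cd14 gave 22408 and 31967 in the G-MDSC arrays, against 42272 and 63587 in the neutrophil arrays. G-MDSC lay below neutrophils without overlap, with a log2 difference of -0.95 ± 0.35 (SE, n = 2 per group; 95% interval -1.71 to -0.19), but the limma adjusted p was 0.087. It passed with quantile normalization (-0.64, adjusted p = 0.038) and without neutrophil replicate 1 (-1.25, adjusted p = 0.000888), a fit in which 44.8% of all genes were called. Ly96 gave 670.8 and 1113 in the G-MDSC arrays, against 862.9 and 1467 in the neutrophil arrays. The groups overlapped, and the difference of -0.37 (95% interval -1.21 to 0.46; limma adjusted p = 0.545) turned to 0.25 with equal medians and was -0.75 in that same fit without neutrophil replicate 1 (adjusted p = 0.0498). The log2 ratio of Ly96 to Tlr4 was -1.16 and -0.77 in the G-MDSC arrays, against -2.96 and -1.28 in the neutrophil arrays, a change of 1.16 that was 0.31 without neutrophil replicate 1. That of Cd14 to Tlr4 overlapped between the groups.

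Tlr5, the receptor for flagellin, gave 217.6 and 196.9 in the G-MDSC arrays, against 156.7 and 386.1 in the neutrophil arrays. The G-MDSC values lay between those of the neutrophils, and the difference was -0.24 (95% interval -1.29 to 0.81; limma adjusted p = 0.765). It was 0.36 with equal medians and 0.37 without neutrophil replicate 2, so no direction can be given.

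Among the endosomal receptors, Tlr7, which recognises single-stranded RNA, was higher in G-MDSC. Its brightest probe set, 1422010_at, gave 784.6 and 1081 in the G-MDSC arrays, against 297.2 and 345.6 in the neutrophil arrays. Both G-MDSC arrays were more than 2-fold above both neutrophil arrays (log2 difference 1.48 ± 0.34, SE, n = 2 per group; limma adjusted p = 0.0136), a 2.78-fold difference. The call held with equal medians (2.09, adjusted p = 0.0203) and was lost without G-MDSC replicate 1 (1.70, adjusted p = 0.0703) or G-MDSC replicate 2 (1.25, adjusted p = 0.267).

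The other Tlr7 probe sets pointed the same way with a wider spread. Probe set 1449640_at gave 462.6 and 1007 in the G-MDSC arrays, against 183.7 and 400.6 in the neutrophil arrays, and 1419848_x_at gave 322.4 and 1115 in the G-MDSC arrays, against 142.9 and 253.5 in the neutrophil arrays. The suffix of 1419848_x_at marks probes that may also bind other transcripts. In the fit over all kept probe sets the brightest was called (adjusted p = 0.0406), and these 2 differed by 1.28 and 1.58 with limma adjusted p of 0.173 and 0.146. The median of the 3 probe sets differed by 1.43 (adjusted p = 0.0527).

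Tlr13, which recognises bacterial ribosomal RNA in mice, gave 8530 and 10815.5 in the G-MDSC arrays, against 7822 and 4380.5 in the neutrophil arrays. G-MDSC were higher without overlap, but replicate 1 of each group differed little, and the difference of 0.71 (95% interval -0.05 to 1.47) did not pass (limma adjusted p = 0.197). Without neutrophil replicate 1 it was 1.13 (adjusted p = 0.00143), in the fit from the G-MDSC spread alone that called 44.8% of all genes. Tlr9, the receptor for unmethylated CpG DNA, gave 63.9 and 9.23 in the G-MDSC arrays, against 43.8 and 187.2 in the neutrophil arrays. Of these values, 2 of 4 were above the 40th percentile of their array, so Tlr9 was near the lower limit of the measurement. Its difference of -1.30 ± 1.02 had a 95% interval of -3.54 to 0.95 (limma adjusted p = 0.43), and in that same fit without neutrophil replicate 1 it was -2.18 (adjusted p = 0.0228), so neither p is support for a difference.

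Across the 16 alternatives, Tlr1, Tlr2, Tlr4, Tlr7, Cd14, Tlr9 and Tlr13 kept the sign of their difference, Tlr9 over the 15 that retained it, while Tlr6, Ly96 and Tlr5 each changed sign at least once. Much of this was fixed in advance. Fits without the trend, without moderation or with the replicate block alter the test but not the difference. The same holds for both changes of the filter, for genes they retain, and for the fit over every kept probe set. The median of probe sets altered the difference only for Tlr4 and Tlr7, the members with several probe sets. Where the groups do not overlap, leaving out 1 array cannot turn the sign. Tlr1 ran from 1.53 to 2.37 and Tlr7 from 1.25 to 2.09, while Tlr2 ran from -1.5 to -0.61 and Tlr4 from -2.00 to -0.90.

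**Figure D3:**
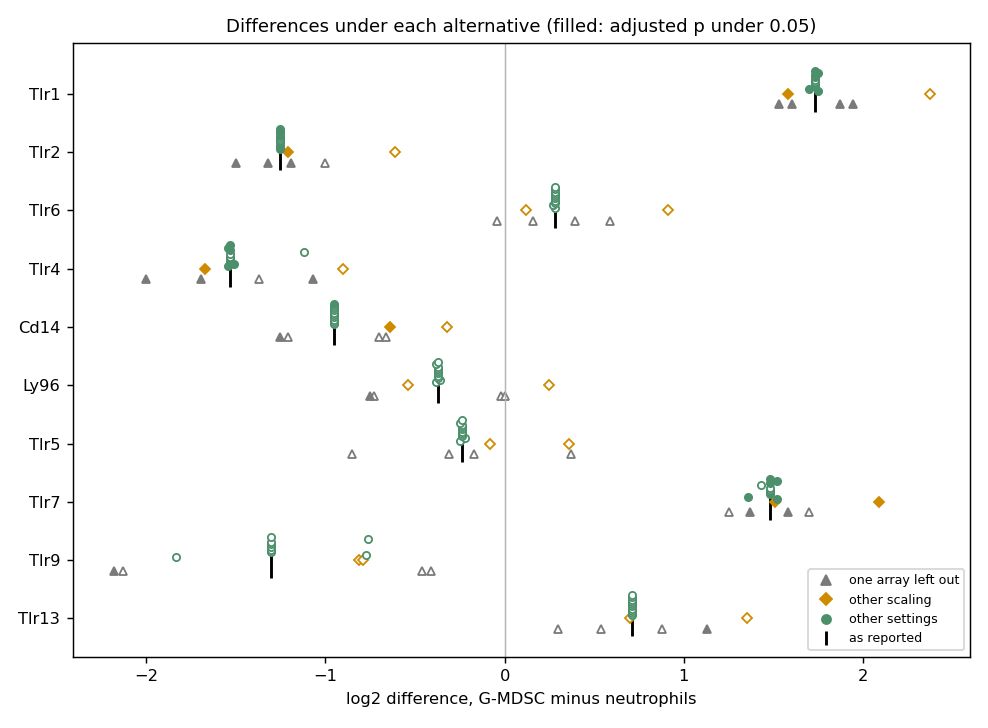
Log2 difference, G-MDSC minus neutrophils, of each gene as reported (black bar), with 1 array left out (triangles), with quantile or median scaling (diamonds) and under the other settings (circles); filled symbols have an adjusted p under 0.05. Tlr1 and Tlr7 stay right of 0 and Tlr2, Tlr4 and Cd14 left of it, while Tlr6, Ly96 and Tlr5 cross it.

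Of the other receptors of the family, Tlr8 and Tlr12 were above the 40th percentile in all 4 arrays. Tlr8, the neighbour of Tlr7 on the X chromosome, gave 137.4 and 94.01 in the G-MDSC arrays, against 71.5 and 167.9 in the neutrophil arrays, and Tlr12 gave 82.7 and 88.5 in the G-MDSC arrays, against 60.96 and 149.2 in the neutrophil arrays. Neither difference, 0.03 and -0.15, was called, and both changed sign among the alternatives. Tlr3 was at or below the 40th percentile in all 4 arrays and was not tested, and Tlr11 was not analysed here.

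Proteins that deliver ligands to the receptors or sit beside them at the membrane differed in both directions. Of 9 tested, 2 were higher and 4 lower in G-MDSC. This list and those below were chosen with earlier results of these data known. Among all genes, 8.3% were called higher and 8.05% lower. Lbp, the protein that carries LPS to Cd14, gave 3285 and 2435 in the G-MDSC arrays, against 370.2 and 273.4 in the neutrophil arrays, and both G-MDSC arrays were far above the others (log2 difference 3.09 ± 0.33; limma adjusted p = 0.000165). Dok3, an adaptor that restrains myeloid receptor signalling, was higher by 1.67 ± 0.33. Vcan, a matrix proteoglycan reported as a Tlr2 ligand, gave 171.7 and 111.2 in the G-MDSC arrays, against 3872 and 3413 in the neutrophil arrays (-4.56 ± 0.34). Cd36, a scavenger receptor that helps Tlr2 with Tlr6, gave 112.6 and 101.7 in the G-MDSC arrays, against 1265 and 3028 in the neutrophil arrays (-4.00 ± 0.43). Rftn1, a lipid raft protein that acts in Tlr4 uptake, differed by -1.71 ± 0.33. The list median was -0.98, beside -0.18 for all genes.

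Genes for folding and transport of the receptors were mostly not called: 3 of 16 were lower and 0 higher in G-MDSC (list median 0.07), and 13 did not pass. Beside this count and the next, 8.05% of all genes were called lower and 8.3% higher. Slc15a3, an endolysosomal peptide and histidine transporter, gave 4270 and 5798 in the G-MDSC arrays, against 20742 and 19742 in the neutrophil arrays (-2.02 ± 0.31; limma adjusted p = 0.00143). Hsp90b1, the chaperone gp96 that folds most Toll-like receptors, differed by -1.61 ± 0.31 and Lrrc59, which aids export of nucleic acid receptors from the endoplasmic reticulum, by -1.57 ± 0.36. The Hsp90b1 call was lost without G-MDSC replicate 2 (-1.35, adjusted p = 0.0816) and that of Lrrc59 without G-MDSC replicate 1 (-1.38, adjusted p = 0.0769). Of 8 endosomal proteases and cofactors, some of which cleave Tlr7 and Tlr9, 2 were lower and 0 higher, with a list median of -0.90. These were Lgmn, asparagine endopeptidase, at -2.75 ± 0.37 and Ifi30, a lysosomal thiol reductase, at -2.50 ± 0.30.

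Downstream of the receptors, 6 of 21 adaptor and kinase genes were lower and 0 higher in G-MDSC, with a list median of -0.06, beside -0.18 for all genes. For this count and the next, the shares of all genes were 8.05% lower and 8.3% higher. Ikbke, a kinase of the interferon branch, gave 642.8 and 372.2 in the G-MDSC arrays, against 13988 and 6095 in the neutrophil arrays (-4.19 ± 0.42; limma adjusted p = 0.000103). Traf1, a signalling adaptor that NF-kappaB induces, differed by -4.09 ± 0.43 and Irak2, a kinase that sustains MyD88 signalling, by -2.44 ± 0.37. Of 28 inhibitors of the pathway, 6 were lower and 0 higher, with a list median of -0.09. Tnfaip3 (A20, a ubiquitin-editing enzyme) differed by -2.59 ± 0.40, Zc3h12a (Regnase-1, a ribonuclease) by -2.27 ± 0.30 and Irak3 (an inhibitory kinase) by -2.02 ± 0.31.

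Early target genes of the receptors were mostly lower in G-MDSC: 22 of 29 were called lower and 0 higher, with a list median of -2.66. Among all genes, 8.05% were called lower. The list was chosen with earlier results of these data known, so its count is not an independent result. The 3 largest differences were of the chemokine Cxcl1 and the cytokines Il1a and Il6. Cxcl1 gave 273.2 and 643.3 in the G-MDSC arrays, against 27067 and 50002 in the neutrophil arrays (-6.40 ± 0.43), and Il6 gave 303.2 and 410.2 in the G-MDSC arrays, against 10131 and 23249 in the neutrophil arrays (-5.38 ± 0.40). Il1a differed by -6.33 ± 0.68. Many other stimuli induce these genes too. Of 17 receptors of other pattern-recognition families, 4 were lower and 1 higher, with a list median of -0.53. Clec4n (dectin-2), Nlrp3 and Mefv (pyrin) differed by -2.53 ± 0.31, -1.87 ± 0.31 and -1.39 ± 0.32, and Pglyrp1, a peptidoglycan-binding granule protein, was higher by 1.30 ± 0.33. The Mefv call was lost without G-MDSC replicate 1 (-1.12, adjusted p = 0.188), and that of Pglyrp1 without G-MDSC replicate 1 or 2 (1.36 and 1.25, adjusted p = 0.0993 and 0.147) and with no filter (adjusted p = 0.089). With arrays scaled to equal medians, 19 in place of 47 genes of these lists were called lower. Of the called genes named from them, Lbp, Vcan, Cd36, Ikbke, Traf1, Cxcl1, Il1a, Il6 and Pglyrp1 then passed, and the others did not.

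**Figure D4:**
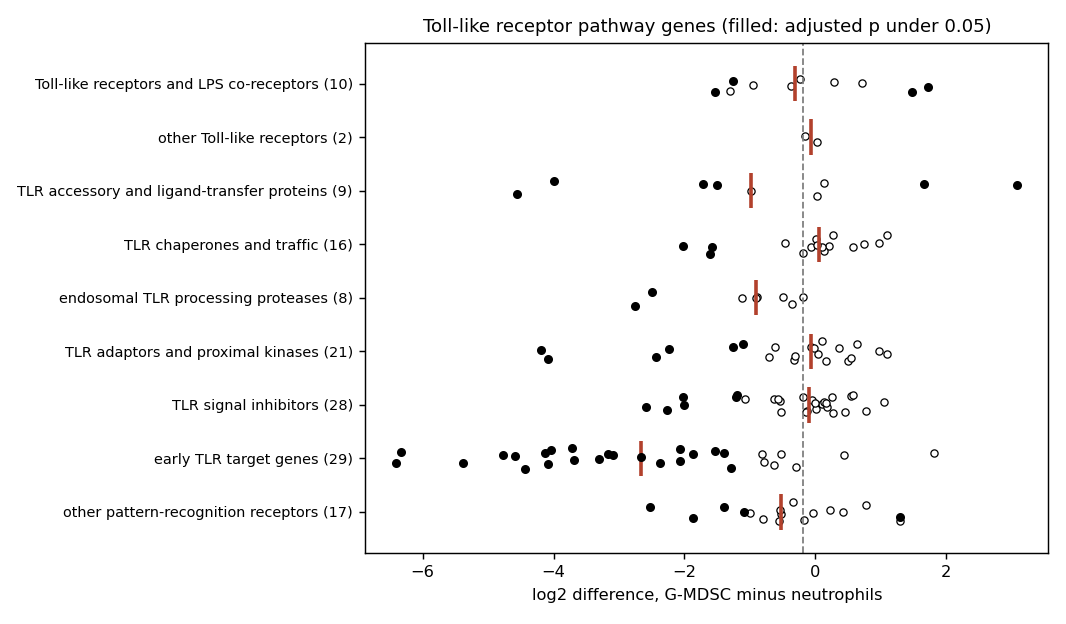
Log2 difference, G-MDSC minus neutrophils, of each tested gene of the receptor set and of 8 pathway lists (number tested in brackets); filled points have an adjusted p under 0.05, red bars are list medians and the dashed line is the median of all genes, -0.18. The early target genes have a median of -2.66, while the receptors lie on either side of 0.

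Markers of other cells that carry Toll-like receptors also differed. Among 16 macrophage markers, 10 were called lower and 0 higher in G-MDSC, with a list median of -2.21. Beside this count and those below, 8.05% of all genes were called lower and 8.3% higher. The summed signal of the 16 was 45863 and 48343 in the G-MDSC arrays, against 71660 and 110553 in the neutrophil arrays. Of these sums, Lyz1 alone gave 30912 and 33522 in the G-MDSC arrays, against 30501 and 49976 in the neutrophil arrays. Of 7 monocyte markers, 5 were lower and 0 higher, with sums of 6870 and 7079 in the G-MDSC arrays, against 30643 and 38530.1 in the neutrophil arrays. Of 12 dendritic cell markers, 6 were lower and 0 higher, with sums of 20953 and 21758 in the G-MDSC arrays, against 46543 and 60315 in the neutrophil arrays. In both G-MDSC arrays, 2 of the 12 were at or below the 40th percentile, so they passed the filter only through the neutrophil arrays. The brightest genes of the macrophage list, Lyz1 and Csf1r, were among the 6 not called (-0.28 ± 0.34 and -0.59 ± 0.29). The Lyz1 probe set has the x_at suffix, so it may also bind other transcripts. The largest differences of that list were of Msr1 and Marco (-5.89 ± 0.33 and -5.36 ± 0.46), named after their values were seen. The monocyte markers F13a1 and Ms4a6b differed by -1.71 ± 0.32 and -3.04 ± 0.32. Adgre1, the gene of F4/80 and named after its values were seen, gave 816.9 and 643.1 in the G-MDSC arrays, against 4847 and 7136 in the neutrophil arrays (-2.99 ± 0.32; limma adjusted p = 0.000172). It was thus higher in the group from which F4/80-bearing cells had been depleted. Cd74 and H2-Aa, of antigen presentation, differed by -1.36 ± 0.31 and -1.22 ± 0.31. The called markers of these 3 lists were all lower in G-MDSC, as were Tlr2, Tlr4, Cd36 and, without a call, Cd14. Tlr1 (1.73), Tlr7 (1.48) and Tlr13 (0.71, not called) were higher. A shared direction does not show which cells a transcript came from. The part of such cells in any of these differences was not tested.

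Tlr7 and Tlr9 are also known from B cells. Of 11 B and plasma cell markers, 3 were higher and 0 lower, with sums of 26362 and 19588 in the G-MDSC arrays, against 10861 and 13210 in the neutrophil arrays. Beside this count and those below, 8.3% of all genes were called higher and 8.05% lower. Jchain, which belongs to antibody-secreting cells, was higher by 4.49 ± 0.39, while the B cell marker Ms4a1 (CD20) was not called and gave 3275 and 4084 in the G-MDSC arrays, against 2751 and 4256 in the neutrophil arrays. Jchain and Igha, an antibody heavy chain gene, were chosen after their values were seen and are among the 3 called higher. Without them the sums of the other 9 were 11648 and 11486 in the G-MDSC arrays, against 10304 and 12674 in the neutrophil arrays. These sums overlap, but the choice of genes favoured that, so nothing about B cells follows from it. These 9 include Cr2, the other gene called higher (2.42 ± 0.58, limma adjusted p = 0.0152) and named after its values were seen. Cr2 gave 885.7 and 792.1 in the G-MDSC arrays, against 59.4 and 320.4 in the neutrophil arrays. It is a small part of sums led by brighter genes such as Ms4a1, and 8 of the 11 were not called. Of 7 T and NK cell markers, 1 was higher, Nkg7 (1.83 ± 0.56), and 0 lower, with sums of 1455 and 680.1 in the G-MDSC arrays, against 936.3 and 939.2 in the neutrophil arrays. Gzma was not called (-1.0 ± 0.58). For mast cells and basophils, 5 of 8 markers were lower and 1 was higher, with sums of 4025 and 4012 in the G-MDSC arrays, against 16138 and 6456 in the neutrophil arrays. Of these 8, 3 were at or below the 40th percentile in both G-MDSC arrays and 1 in both neutrophil arrays. Such genes passed the filter only through the other group, so the counts that include them are no support for a difference. Cpa3 of that list differed by -3.53 ± 0.42 and Kit, not called, by 1.62 ± 0.51. Kit alone gave 2003 and 3146 of these sums in the G-MDSC arrays, against 1551 and 417.0 in the neutrophil arrays, and the list median was -2.95. No marker of these lists was at or below the 40th percentile in all 4 arrays, which the filter ensures for tested genes. The part of these cells in the Tlr1 and Tlr7 differences was not tested, and in such bulk samples fewer cells of a type and less RNA per cell cannot be told apart.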

How the data were processed

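Total RNA (100 ng per sample) from 2 G-MDSC and 2 neutrophil samples was labelled and hybridised to Affymetrix arrays. The deposited intensity values are linear signals made by the authors; the submitters' processing notes name GCOS 1.4 and MAS5. They have a mean of 500 in each array when 2% of values are trimmed at each end, so no scaling was added. Detection calls were not used, and a genome build is not given in the sources used here. Probe sets were named from the platform annotation: 34945 carry 1 symbol, 932 more than 1 and 9160 no symbol. The 64 controls were left out. Of those with 1 symbol, 34741 were matched to RefSeq by gene ID.

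Signals were used as log2(signal + 16), which understates differences of dim genes. Probe sets exceeding the 40th percentile of the array in 2 or more of the 4 arrays were retained (28754 probe sets, 13139 genes), and the one with the highest mean stood for its gene. Differences were fitted with limma 3.58.1 (lmFit, eBayes with an intensity trend) in R 4.3.3, two-sided, with Benjamini-Hochberg adjustment, and figures were drawn with Python 3.11.15. Intervals are 95% intervals from the same fit. The functions were tested on simulated data. Alternatives were pseudocounts of 1 and 64, no filter or one at the 60th percentile, a floor at the 40th, quantile or median scaling, eBayes without the trend, no moderation, the median of probe sets or every probe set, a block for replicate number, and each array left out.

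The members and the gene lists were chosen with earlier results of these data known. The lists held 232 entries, of which 206 had a usable probe set. The text names all 10 members, of each pathway list up to 3 called genes per direction with the largest difference (or its 2 brightest tested genes where none was called), and of each marker list its 2 brightest genes. Tlr3 is named as the untested member of its list.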

Additional observations from a re-analysis of the deposited data

How the results depend on the processing

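Of 159 values for the 10 members under 16 alternatives, 132 kept their direction and side of the threshold, 17 lost a call, 6 gained one and 4 changed sign. Alternatives that alter only the test could not change a direction, so these counts overstate how far directions were tried. With 1 array left out, Tlr6 ran from -0.04 to 0.59, Tlr5 from -0.85 to 0.37, Tlr8 from -0.50 to 0.57 and Tlr12 from -0.70 to 0.40. The sign changed for Tlr6 and Tlr5 without neutrophil replicate 2, and for Ly96 (0.25) and Tlr5 (0.36) with median scaling. Tlr8 was at -0.21 and -0.50 without G-MDSC replicate 1 and neutrophil replicate 1. Tlr12 was at 0.40 with quantile normalization, 0.41 with median scaling and 0.40 without neutrophil replicate 2. For 25 other pathway genes, 341 of 398 values stayed on their side of the threshold and 52 lost a call.

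Members called higher and lower numbered 1 and 0 with median scaling, 0 and 0 without the trend, 0 and 0 without moderation and 1 and 1 with the median of probe sets. At an unadjusted p under 0.05 there were 2, 4, 3 and 5 members. Leaving out 1 array gave 1 to 3 higher and 0 to 5 lower members, and 2 to 14 higher and 36 to 62 lower pathway genes, while the share of all genes called ran from 7.63% to 44.8%. The 3 higher and 5 lower members and the 14 higher pathway genes came without neutrophil replicate 1, where 2419 genes were higher and 3472 lower. The 0 lower members came without G-MDSC replicate 1 (7.63% of all genes called), with 3 at an unadjusted p under 0.05. Pathway genes called higher numbered 3 as reported, 1 without the trend, 0 without moderation, 7 with the floor at the 40th percentile and 8 with the replicate block. Without neutrophil replicates 1 and 2 they numbered 14 and 6. Those called lower numbered 47 as reported, 19 with median scaling, 28 without the trend and 0 without moderation, where 42 of these genes were at an unadjusted p under 0.05. The causes were not tested. Without moderation limma called 0 of all genes, with 2379 at an unadjusted p under 0.05.

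The labels do not say that replicate numbers mark pairs. Deviations of replicate 1 from its group mean correlated at 0.24 between the groups across 13139 genes. With 2 arrays per group, replicate 2 deviates by the same amounts with the opposite sign. The 2 pairs thus give a single value, which does not show pairing. With the replicate number as a block, limma called 3306 in place of 2149 genes, Cd14 among them (-0.95, adjusted p = 0.00651). Dim signals limit Tlr9, which was left out by the filter at the 60th percentile.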
